A study of Mus musculus with 19 samples.

Results

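The transcriptome of the extra-embryonic ectoderm (ExE) at embryonic day 6.5 was compared between embryos that had lost maternal Eed (matKO) and control embryos (CTR). The comparison used the 13 ExE libraries among the 19 samples of the series, 9 of them matKO and 4 CTR, as chosen by tissue and genotype from the labels. Mothers of the matKO embryos were Eed-fl/fl with Gdf9-Cre, a Cre driver active in growing oocytes, and this group comprised 4 female and 5 male libraries. The CTR embryos came from Eed-fl/fl mothers without Cre and comprised 2 female and 2 male libraries. All fathers were wild type and the strain was given as B6/129 x PWK, so every embryo inherited an intact paternal Eed, and matKO embryos lack the gene product only until the paternal copy supplies it. Lysates of ExE went directly into cDNA amplification for ultra-low input and a transposase-based library kit. Nothing in the labels ties a library to its own embryo, litter or dissection, so the tests are against the spread among libraries, which may be technical.

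Polycomb repressive complex 2 (PRC2) places methyl groups on lysine 27 of histone H3 (H3K27me3) and keeps its target genes silent. Eed is the subunit that binds the mark and is needed for the activity of the complex. In mice, H3K27me3 laid down in the oocyte silences the maternal copy of a small class of genes, a form of imprinting that does not need DNA methylation and that persists mainly in extra-embryonic lineages. ExE is the trophoblast tissue that lies between the epiblast and the ectoplacental cone and holds the stem-like cells of the future placenta.

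Expression was given as RPKM (reads scaled to transcript length and library total) for 22521 genes, and 9915 of them averaged 1 RPKM or more over the 13 libraries and were tested. The absolute read depth is unknown. The low values fall on whole multiples of a single read, which gave relative depths that ran from 0.482 (matKO male 4) to 1 (matKO female 1) in matKO libraries and from 0.53 to 0.78 in CTR libraries. MatKO male 4 and male 5 stood apart from the other libraries. They lay at 50.2 and 35.2 on the first principal component, which held 43.5% of the variance, while the other 11 libraries lay between -15.9 and 7.48. MatKO male 4 had 913 genes more than 1 log2 unit from the CTR mean and matKO male 5 had 644, whereas the other matKO libraries had 67 to 208 and each CTR library had 29 to 41 against the mean of the remaining CTR libraries. In 1184 genes (11.9% of those tested) these 2 libraries had the 2 highest values of the 13, and in 1181 genes the 2 lowest.

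The labelled tissue was checked against its markers. The ExE regulators Elf5, Eomes and Cdx2 were present in all libraries, with Elf5 at 178 to 262 RPKM in matKO libraries and 191 to 277 RPKM in CTR libraries. The summed markers of trophoblast stem cells and ExE were 1564 to 3214 RPKM in matKO libraries and 2611 to 3151 RPKM in CTR libraries. Id2 alone averaged 1424 RPKM in matKO libraries and 1803 RPKM in CTR libraries. The sum therefore follows mainly that gene and says little of the other factors. Of the 44 members of the placental prolactin, cathepsin and related secreted families none passed the filter, and their sum was at most 0.718 RPKM in matKO libraries and 0.533 RPKM in CTR libraries. Tpbpa, the defining marker of the ectoplacental cone's spongiotrophoblast derivatives, was listed at 0 in all libraries except matKO male 2, at 0.0299 RPKM. The summed stem cell and ExE list was lowest in matKO male 4, at 1564 RPKM, and was 2678 RPKM in matKO male 5, within the CTR range, and Elf5 stood at 185 and 204 RPKM in these males, within the range of the other matKO libraries. Other lineage genes set both males apart. Esrrb, a nuclear receptor of trophoblast stem cells, stood at 0.310 RPKM in matKO male 4 and 3.77 in matKO male 5, against 25.99 to 55.8 RPKM in the other 7 matKO libraries and 35.5 to 40.9 RPKM in CTR libraries. Hand1, which drives trophoblast toward giant cells, stood at 312 and 295 RPKM in those males, against 34.2 to 103 RPKM in the other matKO libraries and 27.9 to 55.3 RPKM in CTR libraries. Hand1 is itself part of the summed stem cell and ExE list, so that sum does not show whether those males kept the other factors. Pou5f1, the defining epiblast factor, reached 5.39 RPKM in matKO libraries and 8.001 RPKM in CTR libraries. The summed epiblast list was 751 and 849 RPKM in those males, 1334 to 1809 RPKM in the other matKO libraries and 1311 to 1547 RPKM in CTR libraries. Its largest members in CTR libraries were Utf1, with a mean of 503 RPKM, and Cldn6, with 352 RPKM. The sum therefore rests mainly on a few well-expressed genes and is not a measure of epiblast cells. In tissue lysates, fewer cells of a type and less RNA per cell cannot be told apart.

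**Figure D1:**
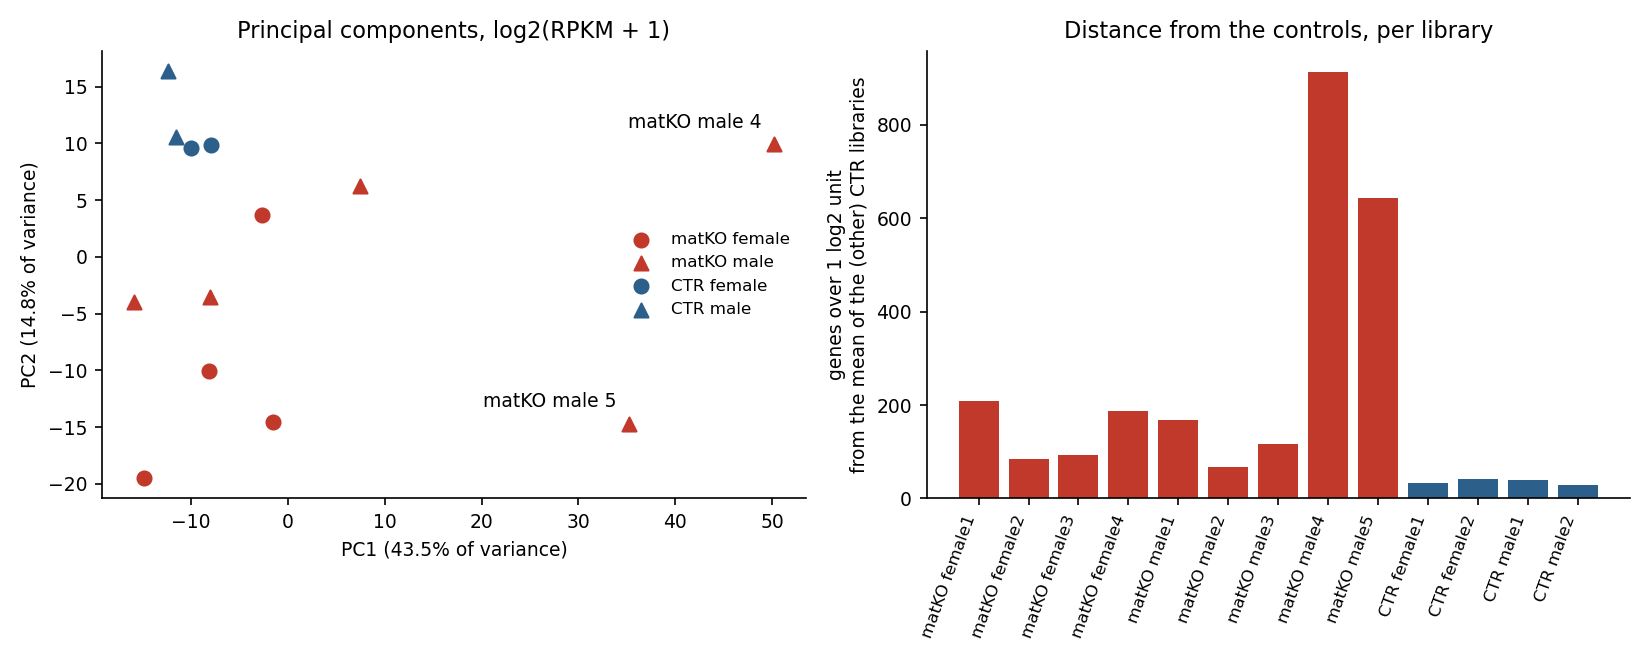
Left, the 13 libraries on the first principal components of log2(RPKM + 1), with the share of variance on each axis. Right, the number of genes in each library that lie more than 1 log2 unit from the mean of the CTR libraries (for a CTR library, of the remaining ones). MatKO male 4 (913 genes) and matKO male 5 (644 genes) stand apart from the other matKO libraries (67 to 208) and from CTR (29 to 41).

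With sex held fixed, 20 of 9915 genes passed the test at an adjusted p under 0.05 (0.202%), of which 11 were higher in matKO ExE (0.111%) and 9 were lower (0.0908%). In each of the 20 the matKO and CTR values did not overlap, which was so for 154 genes with all matKO libraries higher (1.55%) and 137 genes with all matKO libraries lower (1.38%). An unadjusted p under 0.05 was reached by 960 genes that were higher (9.68%) and 721 that were lower (7.27%). The median change over all genes tested was 0.01 on the log2 scale. The test was limma's on log2(RPKM + 1) with Benjamini-Hochberg adjustment over all 9915 genes, and log2 changes are on that scale, which understates changes of genes near or below 1 RPKM. Single control libraries set the count, which was 2 without CTR male 1 (Thg1l and Gab1) and 4 without either CTR female 2 or CTR male 2 (Plaur and C430002E04Rik besides). The other 16 genes were each lost without any of these 3 libraries. It was 8 without matKO female 1, 10 without matKO female 4, 51 without matKO female 2, 89 without the 2 males that stood apart, and 1032 when each library was weighted by its spread.

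Eed itself was the first gene examined. The table places it on the minus strand of chromosome 7 (97103164 to 97103573, mm9) and, as for all genes, gives only a stretch of it. It ranged over 49.0 to 118 RPKM in matKO libraries, with a median of 102, against 113, 142, 133 and 148 RPKM in CTR libraries, and the ranges overlapped only through CTR female 1. The lowest value was that of matKO male 4. The means were 96.6 ± 21.003 RPKM in matKO libraries (SD, n = 9) and 134 ± 15.2 RPKM in CTR libraries (n = 4), a sex-adjusted difference of -36.4 RPKM (p = 0.0127 by exact two-sided permutation of genotype within sex, where 315 arrangements allow 0.00317 at least). The log2 change of -0.49 did not pass over all genes (limma adjusted p = 0.202). Total Eed need not vanish in this design, since the paternal allele is intact. In reads assigned to a parental allele, maternal Eed averaged 14.2 ± 3.93 RPKM in matKO libraries and 68.8 ± 6.67 RPKM in CTR libraries, without overlap. Paternal Eed averaged 88.2 ± 17.9 and 81.2 ± 5.64 RPKM, with overlap.

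Thg1l and Gab1 were the genes with the smallest p-values, and both were higher in every matKO library. Thg1l encodes the enzyme that adds a guanosine to the 5′ end of histidine tRNA (chromosome 11, 45761656 to 45761830 in mm9, minus strand, where the interval is the one in the deposited table and spans only part of the gene). It ranged over 63.4 to 86.0 RPKM in matKO libraries, with a median of 78.7, against 31.8, 29.2, 27.7 and 23.6 RPKM in CTR libraries. The lowest matKO library, male 4, was still well above the highest CTR library, and the groups did not overlap. The means were 76.3 ± 7.16 RPKM (n = 9) and 28.1 ± 3.43 RPKM (n = 4), a 2.67-fold increase (log2 change 1.42, 95% interval 1.23 to 1.60, limma adjusted p = 3.5e-06). Gab1, a docking protein that carries signals from growth factor receptors and is needed for the mouse placenta (chromosome 8, 83288333 to 83290386 in mm9, minus strand), ranged over 48.0 to 62.1 RPKM in matKO libraries, with a median of 54.5. CTR libraries had 30.8, 24.5, 22.8 and 23.8 RPKM. Gab1 rose 2.12-fold, with means of 54.7 ± 4.84 and 25.5 ± 3.64 RPKM (log2 change 1.08, 95% interval 0.89 to 1.27, limma adjusted p = 8.17e-05). Thg1l passed in all 28 alternative settings and Gab1 in 27 of 28, with the exception at an adjusted p of 0.0638.

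Windows at listed starts of Thg1l and Gab1, the calls that passed in the most settings, are shown because CpG-rich starts are where Polycomb complexes are known to bind in mammals. Each run covers 250 bases before to 50 after a start listed by RefSeq in GRCm38.p6, a later build than the mm9 of the expression table, and CG pairs are in capitals. For genes with several listed starts, the window with most CG pairs was taken. Thg1l has 2 listed windows, and the one so taken includes coding sequence from an ATG onward. Its CG pairs therefore do not all lie upstream of the gene.
Thg1l, chr11:45955139-45955438, minus strand: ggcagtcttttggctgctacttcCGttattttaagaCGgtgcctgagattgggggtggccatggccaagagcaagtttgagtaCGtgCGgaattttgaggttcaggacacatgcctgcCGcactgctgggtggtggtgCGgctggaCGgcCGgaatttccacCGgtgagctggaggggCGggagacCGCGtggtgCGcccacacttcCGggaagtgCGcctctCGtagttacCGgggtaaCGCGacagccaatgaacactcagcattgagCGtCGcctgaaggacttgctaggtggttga
Gab1, chr8:80880430-80880729, minus strand: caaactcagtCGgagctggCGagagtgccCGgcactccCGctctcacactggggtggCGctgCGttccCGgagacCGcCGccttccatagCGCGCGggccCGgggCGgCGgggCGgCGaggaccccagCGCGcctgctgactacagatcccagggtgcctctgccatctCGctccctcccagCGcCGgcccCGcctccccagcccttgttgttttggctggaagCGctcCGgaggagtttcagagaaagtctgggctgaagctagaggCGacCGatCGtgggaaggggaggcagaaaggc
Thg1l has 21 CG pairs in this window, a number reached by 24.8% of the 32851 windows in the table, and Gab1 has 28, reached by 14.2%. A window was found for 13 of the 20 genes that passed, and the median was 21 CG pairs over the 9 higher genes and 9.5 over the 4 lower ones, beside 23 over 7140 tested genes.

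The gene with the third smallest p was Plaur, the receptor that focuses urokinase on the cell surface. It ranged over 92.2 to 129 RPKM in matKO libraries, with a median of 97.4, against 80.7, 71.2, 54.2 and 48.9 RPKM in CTR libraries, where the females stood above the males. Plaur rose 1.68-fold (means 105 ± 14.1 and 63.7 ± 14.8 RPKM, log2 change 0.75, 95% interval 0.55 to 0.95, limma adjusted p = 0.00650). It passed in 25 of 28 settings and was lost without CTR male 1 (adjusted p 0.0688). Another gene of the cell surface and matrix was Tinagl1, a secreted matrix protein, at 95.6 to 155 RPKM in matKO libraries and 95.3, 74.5, 61.9 and 72.9 RPKM in CTR libraries. Its groups were separated by less than 1 RPKM, and its log2 change of 0.64 (adjusted p = 0.0389) was lost without any of 9 single libraries.

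C430002E04Rik is a transcript that RefSeq lists as Platr4 and that lies on chromosome 3 (41291603 to 41293658 in mm9, minus strand) near Phf17 (41359656 to 41359741, plus strand), a gene with an H3K27me3-dependent imprint. It stood at 4.28 to 6.77 RPKM in matKO libraries, with a median of 5.03, against 1.44, 2.80, 1.39 and 2.28 RPKM in CTR libraries. The log2 change was 1.16 (95% interval 0.83 to 1.48, adjusted p = 0.00795), and the call was lost without CTR male 1 (0.0849). No function is given for it in the tables used here.

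The other 6 higher genes have varied roles. Stk25, a kinase that acts on the Golgi and cell polarity, ranged over 10.5 to 17.04 RPKM in matKO libraries and 7.77 to 8.76 RPKM in CTR libraries (log2 change 0.71, adjusted p = 0.0281). Alkbh1, a dioxygenase that removes methyl groups from tRNA, ranged over 26.5 to 32.1 RPKM and 19.4 to 22.5 RPKM (log2 change 0.44, adjusted p = 0.0264). Together with Thg1l it made a pair of tRNA-modifying enzymes among the 11 genes, an association that was noticed after the values were seen and not tested. Naa11, the catalytic subunit of an N-terminal acetyltransferase and a copy of the X-linked Naa10, ranged over 2.53 to 5.41 RPKM in matKO libraries and 1.21 to 1.60 RPKM in CTR libraries (log2 change 1.02, adjusted p = 0.0296). It is named after its values were seen, and its reads may be shared with Naa10. Arhgap9 rose by 0.65 (24.4 to 37.5 RPKM in matKO libraries and 16.9 to 19.8 RPKM in CTR libraries, adjusted p = 0.0404). Otud5, an X-linked deubiquitinase, rose by 0.56 (18.2 to 27.99 RPKM and 13.8 to 18.1 RPKM, adjusted p = 0.0292), and its groups were separated by less than 0.1 RPKM. The smallest of the changes was that of Gas5, a non-coding RNA whose introns hold small nucleolar RNAs, at 126 to 152 RPKM in matKO libraries and 95.5 to 122 RPKM in CTR libraries (log2 change 0.38, adjusted p = 0.0460). In the reference Gas5 overlaps Zbtb37, Stk25 overlaps Farp2 and Arhgap9 overlaps Gli1, and since no strand-specific step is given in the protocol, their reads cannot be assigned with certainty. The same holds for Alkbh1 and for the lower genes Gnb4 and Slc23a1, each of which overlaps another gene.

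**Figure D2:**
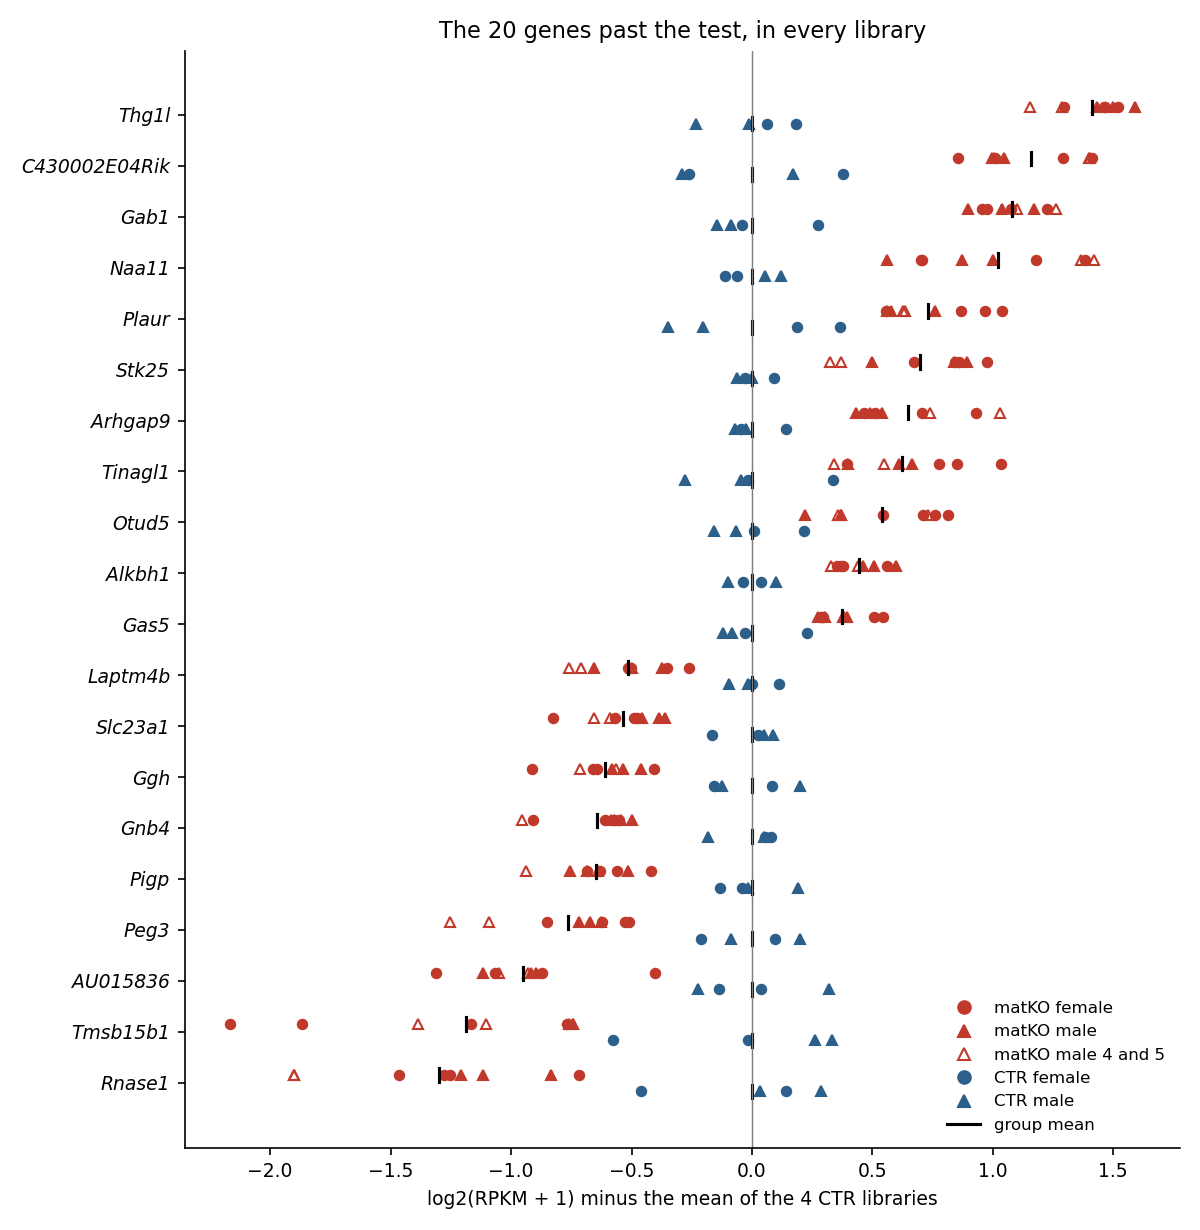
Every library's value for the 20 genes past the test, as log2(RPKM + 1) minus the mean of the 4 CTR libraries. Circles are female and triangles male libraries, open triangles are matKO male 4 and male 5, and bars are group means. The matKO and CTR points do not overlap in any of the 20 genes, and the gap is widest for Thg1l.

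Genes that fell in matKO ExE were led by Pigp, a subunit of the enzyme that starts the synthesis of GPI anchors (chromosome 16, 94580370 to 94580781 in mm9, minus strand). It ranged over 58.5 to 84.3 RPKM in matKO libraries, with a median of 72.2, against 103, 110, 129 and 112 RPKM in CTR libraries. All 9 matKO libraries lay below all CTR libraries. The means were 72.1 ± 7.38 and 113 ± 11.1 RPKM (log2 change -0.65, 95% interval -0.84 to -0.45, limma adjusted p = 0.0114). Pigp passed in 22 of 28 settings and was lost without CTR female 2, CTR male 1 or CTR male 2. In the reference it overlaps Ttc3. The start of Pigp, which passed in more settings than the other lower genes, is shown in the same form, and that of Peg3 as the imprinted gene among them.
Pigp, chr16:94370661-94370960, minus strand: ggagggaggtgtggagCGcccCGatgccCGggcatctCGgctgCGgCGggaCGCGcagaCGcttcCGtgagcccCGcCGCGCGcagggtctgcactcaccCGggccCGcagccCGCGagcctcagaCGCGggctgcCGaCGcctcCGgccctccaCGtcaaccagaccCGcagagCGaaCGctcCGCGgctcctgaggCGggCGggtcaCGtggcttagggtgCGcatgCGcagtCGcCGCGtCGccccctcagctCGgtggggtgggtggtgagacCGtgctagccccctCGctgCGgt
Peg3, chr7:6730370-6730669, minus strand: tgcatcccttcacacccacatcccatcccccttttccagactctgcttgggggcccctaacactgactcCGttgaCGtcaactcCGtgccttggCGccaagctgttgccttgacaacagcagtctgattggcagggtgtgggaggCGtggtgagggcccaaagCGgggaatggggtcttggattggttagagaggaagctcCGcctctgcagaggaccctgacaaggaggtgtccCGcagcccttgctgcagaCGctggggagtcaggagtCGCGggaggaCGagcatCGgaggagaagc
The Pigp window holds 42 CG pairs, a number reached by 3.03% of all windows, and that of Peg3 holds 13, reached by 37.9%.

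Peg3 is an imprinted zinc finger gene that is expressed from the paternal allele under a DNA methylation imprint (chromosome 7, 6658671 to 6664442 in mm9, minus strand). It ranged over 10.1 to 17.6 RPKM in matKO libraries, with a median of 15.6, against 21.9, 27.4, 29.4 and 23.997 RPKM in CTR libraries. MatKO male 4 and male 5 were the lowest, at 10.1 and 11.4 RPKM, and the fall was -0.76 log2 units with them (adjusted p = 0.0416) and -0.65 without them (adjusted p = 0.0116). The call depended on single libraries, since it was lost without any of 9 of the 13. An antisense gene, Peg3os, overlaps it and cannot be told apart without strand.

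Among the other lower genes, Ggh, which trims folates in the lysosome, fell to 10.8 to 15.7 RPKM in matKO libraries, against 18.9 to 24.5 RPKM in CTR libraries (log2 change -0.61, adjusted p = 0.0264). Laptm4b, a lysosomal membrane protein, stood at 14.4 to 20.8 RPKM and 23.5 to 27.2 RPKM (log2 change -0.50, adjusted p = 0.0292). Gnb4, a G protein beta subunit, stood at 1.20 to 2.02 RPKM and 2.76 to 3.52 RPKM (log2 change -0.64, adjusted p = 0.0296). Slc23a1, a transporter of vitamin C on chromosome 18, stood at 0.546 to 1.14 RPKM and 1.45 to 1.92 RPKM (log2 change -0.54, adjusted p = 0.0404). Rnase1, a secreted ribonuclease, was listed at 0 in matKO male 4 and male 5 and reached 1.28 RPKM in matKO female 3, against 1.72 to 3.56 RPKM in CTR libraries (log2 change -1.29, adjusted p = 0.0389). All of these ranges were separate, and for Gnb4, Slc23a1 and Rnase1 the levels were so low that the pseudocount of 1 shrinks the change and that reads of an overlapping gene, which Gnb4 and Slc23a1 have, would weigh most.

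X-linked genes made up 3 of the 20 calls and 359 of the 9915 genes tested. Of the 3, 1 was higher and 2 were lower, beside 10 higher and 7 lower of 9556 autosomal genes. AU015836 stood at 3.23 to 6.95 RPKM in matKO libraries, with a median of 4.53, against 8.56, 9.80, 12.1 and 8.01 RPKM in CTR libraries (log2 change -0.95, adjusted p = 0.0264). Tmsb15b1, which belongs to the thymosins that bind actin monomers, stood at 9.10 to 26.1 RPKM and at 29.4, 43.8, 53.3 and 56.0 RPKM (log2 change -1.22, adjusted p = 0.0491). Its neighbours Tmsb15b2 and Tmsb15l are close copies, so the split of reads among them is uncertain, but Tmsb15b2 was also lower, at 0.565 to 5.62 RPKM in matKO libraries and 6.89 to 14.5 RPKM in CTR libraries (log2 change -1.45, adjusted p = 0.0712). Over the chromosome 359 genes were tested. At an unadjusted p under 0.05, 25 were higher (6.96%) and 73 lower (20.3%), beside 9.78% and 6.78% of the 9556 autosomal genes. The median change of X-linked genes was -0.09, and that of autosomal genes 0.02. Within females the X-linked median was -0.04 and within males, which have a single X of maternal origin, it was -0.12, against autosomal medians of 0.01 and 0.02. Xist, whose RNA coats the silenced X, did not pass. Its total level ranged over 6.495 to 12.1 RPKM in matKO females and stood at 9.72 and 7.88 RPKM in CTR females. In males of both groups it was at most 1.09 RPKM. With sex held fixed the log2 change was -0.05 (limma adjusted p = 0.899). Of 5 tested genes that escape X inactivation none passed, 3 were higher and 2 lower, and the median was 0.02. At an unadjusted p under 0.05 the helicase gene Ddx3x was lower (88.3 ± 9.65 RPKM in matKO libraries and 109 ± 10.01 RPKM in CTR libraries, log2 change -0.30, adjusted p = 0.128). The histone demethylase gene Kdm6a was higher at the same threshold (5.53 ± 0.887 and 4.69 ± 0.839 RPKM, log2 change 0.21, adjusted p = 0.279).

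The 5 genes with H3K27me3-dependent imprints, a class defined in part by studies of this kind of embryo, were all higher in matKO ExE on average. Their median change was 0.95, beside 0.01 over all genes tested, and all 5 were higher at an unadjusted p under 0.05, but only Gab1 passed over all genes. Sfmbt2, a relative of the Polycomb gene Sfmbt1 that the mouse placenta needs, had 60.7 to 184 RPKM in matKO libraries, with a median of 141, against 74.2, 61.9, 62.4 and 55.9 RPKM in CTR libraries. MatKO male 2, at 60.7 RPKM, lay within the CTR range and matKO male 1, at 83.2 RPKM, just above it, while the other 7 stood at 120 RPKM or more (log2 change 0.99, adjusted p = 0.0936). Slc38a4, a transporter of amino acids, had 77.5 to 133 RPKM and 61.3 to 81.0 RPKM (log2 change 0.57, adjusted p = 0.0922). Smoc1, a secreted calcium-binding protein, had 2.64 to 13.8 RPKM and 2.23 to 4.58 RPKM (log2 change 0.95, adjusted p = 0.109). Phf17, a subunit of histone acetyltransferase complexes, had 40.1 to 54.8 RPKM and 29.5 to 39.3 RPKM with no overlap (log2 change 0.33, adjusted p = 0.109).

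Canonical imprinted genes, which depend on DNA methylation, were more often lower than higher, with 11 lower and 4 higher in the paternally expressed list and 12 lower and 5 higher in the maternally expressed one, beside 4628 lower and 5287 higher over all genes. Of 15 paternally expressed genes tested, Peg3 passed and 3 others were lower at an unadjusted p under 0.05 (26.7% with Peg3, beside 7.27% of all genes), none was higher, and the median change was -0.15. Ndn, a growth regulator, stood at 0.838 to 2.00 RPKM in matKO libraries and 2.18 to 4.04 RPKM in CTR libraries (log2 change -0.58, adjusted p = 0.0855). Snrpn, a component of the splicing machinery, stood at 76.2 to 125 RPKM and 117 to 143 RPKM (log2 change -0.50, adjusted p = 0.103), and Peg12 averaged 0.808 ± 0.471 and 1.65 ± 0.443 RPKM (log2 change -0.57, adjusted p = 0.179). Of 17 maternally expressed genes tested none passed, and 2 were higher and 2 lower at an unadjusted p under 0.05 (11.8% each). Gnas, a G protein subunit gene, was higher (154 ± 27.5 and 99.8 ± 13.8 RPKM, log2 change 0.61, adjusted p = 0.0866). Ube3a, a ubiquitin ligase, was lower (23.1 ± 2.46 and 28.9 ± 3.01 RPKM, log2 change -0.31, adjusted p = 0.131). Its allelic signal was 49.1% maternal in matKO libraries and 51.1% in CTR libraries, so it was not maternally biased in this tissue. The growth restrainers Phlda2 and Cdkn1c and the trophoblast regulator Ascl2 varied far more among matKO libraries than among CTR libraries. Phlda2 ranged over 472 to 6029 RPKM in matKO libraries and 2513 to 3132 RPKM in CTR libraries, with matKO female 1 lowest and matKO male 4 highest. The summed ectoplacental cone and spongiotrophoblast list was 929.8 RPKM in matKO female 1 and 7973 RPKM in matKO male 4. It was 1239 to 5883 RPKM in the other matKO libraries and 3340 to 4241 RPKM in CTR libraries. The list includes Phlda2, Cdkn1c and Ascl2 themselves, and Phlda2 alone gave 472 and 6029 RPKM of the sums in matKO female 1 and male 4. The sum is therefore not a readout separate from these genes, and the part of cell composition in their ranges was not tested. Ascl2 ranged over 9.06 to 362 RPKM and 87.7 to 123 RPKM, with the same libraries at the ends.

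**Figure D3:**
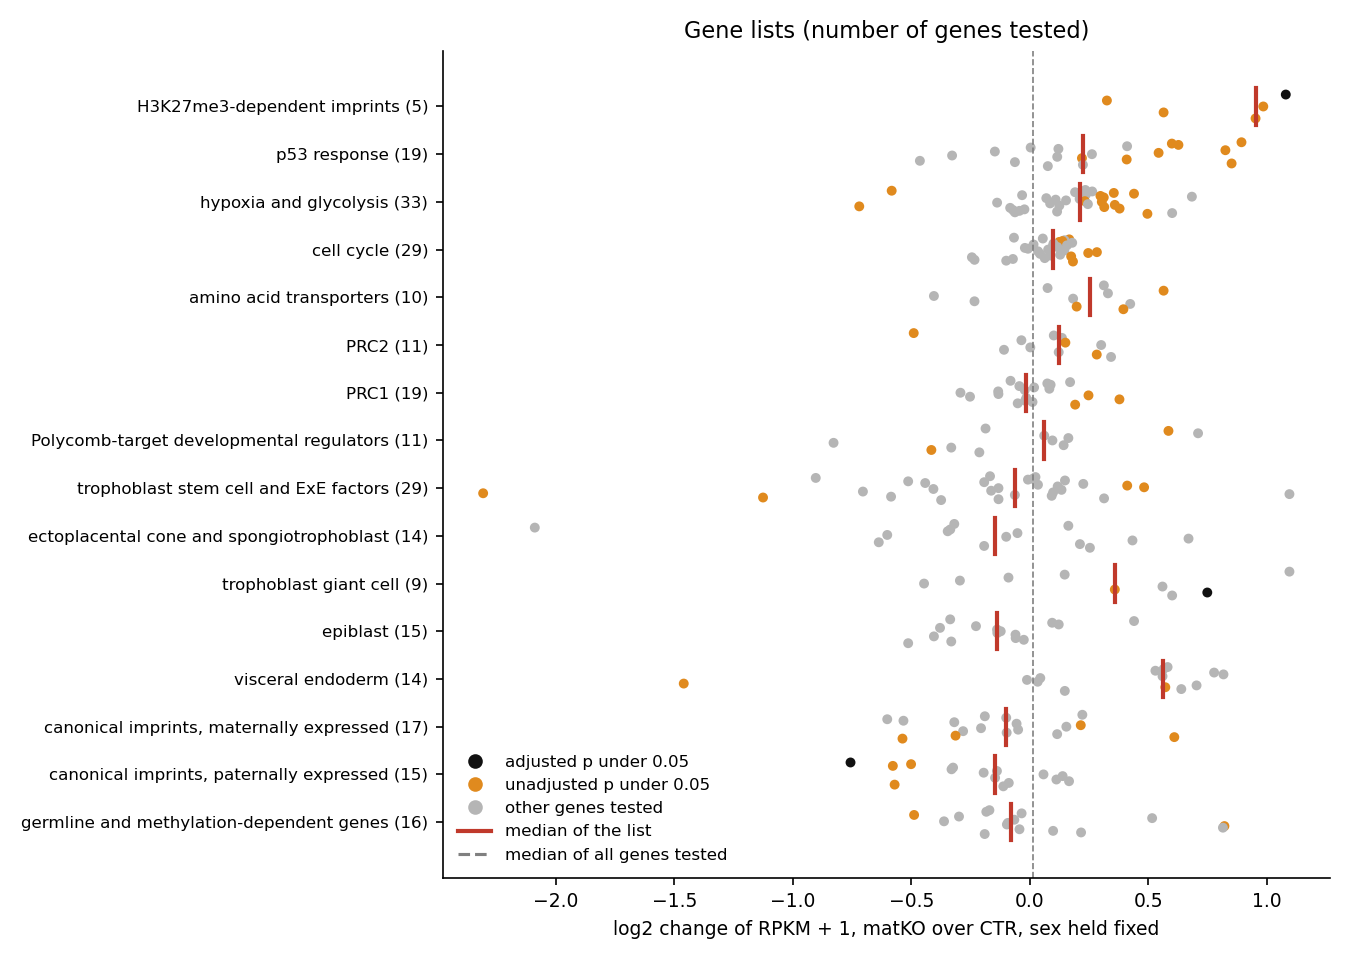
Log2 change of each tested member of 16 gene lists, matKO over CTR with sex held fixed. Black points passed over all genes, orange points had an unadjusted p under 0.05, red bars are list medians and the dashed line is the median of all genes tested. The H3K27me3-dependent imprints have the highest median (0.95), and the visceral endoderm median of 0.56 falls to 0.19 without matKO male 4 and male 5. Several visceral endoderm members passed the filter only through matKO libraries, so their direction was fixed in advance.

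Polycomb genes themselves did not pass the test. Of 11 PRC2 genes tested, 2 were higher (18.2%) and only Eed was lower (9.09%) at an unadjusted p under 0.05, with a median of 0.12. Over all genes these shares were 9.68% and 7.27%. Suz12, the scaffold of the complex, averaged 43.6 ± 2.55 RPKM in matKO libraries and 44.7 ± 4.48 RPKM in CTR libraries (log2 change -0.03, adjusted p = 0.842), and Ezh2, its methyltransferase, 52.9 ± 8.47 and 48.6 ± 3.01 RPKM (log2 change 0.10, adjusted p = 0.627). Of 19 PRC1 genes none passed, with 3 higher (15.8%) and none lower at an unadjusted p under 0.05 and a median of -0.01. Developmental regulators that are Polycomb targets in embryonic stem cells mostly averaged under 1 RPKM. Of 77 such genes listed 11 passed the filter, beside 9915 of 22521 genes in all, and 11 were listed at 0 in all 13 libraries. Of the 11 tested none passed over all genes. Six2, a homeobox gene, averaged 4.18 ± 1.82 and 2.37 ± 0.901 RPKM (log2 change 0.59, adjusted p = 0.291, and 0.80, adjusted p = 0.0401, without matKO male 4 and male 5, where it passed) and Cdkn2b, a cell cycle inhibitor, 1.80 ± 0.656 and 2.64 ± 0.274 RPKM (log2 change -0.42, adjusted p = 0.248).

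Targets of p53, the stress-activated tumour suppressor, were more often higher than lower, 15 against 4. Of the 19 tested none passed over all genes, 8 were higher at an unadjusted p under 0.05 (42.1%, beside 9.68% of all genes) and none was lower, and the median was 0.22. Mdm2, the ligase that restrains p53, ranged over 38.7 to 56.2 RPKM in matKO libraries, with a median of 43.7, against 28.2, 31.9, 24.3 and 35.8 RPKM in CTR libraries. The groups did not overlap (log2 change 0.60, adjusted p = 0.0712). Cdkn1a, the cell cycle inhibitor p21, ranged over 1.82 to 8.03 RPKM and 1.32 to 3.91 RPKM, with matKO male 5 the lowest of the matKO libraries (log2 change 0.89, adjusted p = 0.131). Phlda3, which restrains Akt, averaged 29.5 ± 8.87 and 15.7 ± 2.22 RPKM (log2 change 0.83, adjusted p = 0.109), and Ccng1, a cyclin, 46.4 ± 10.8 and 29.9 ± 9.08 RPKM (log2 change 0.63, adjusted p = 0.145). Bax, the pro-apoptotic p53 target, had 385 ± 35.8 and 383 ± 20.7 RPKM (log2 change 0.00, adjusted p = 0.984). Without matKO male 4 and male 5 the list median was 0.28, and Mdm2 (0.59, adjusted p = 0.0401) and Cdkn1a (0.95, adjusted p = 0.0401) passed.

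Glycolysis and hypoxia genes were also more often higher than lower, 24 against 9, with 10 higher (30.3%) and 2 lower (6.06%) at an unadjusted p under 0.05, beside 9.68% and 7.27% of all genes, none passing over all genes and a median of 0.21. Gpi1, which converts glucose-6-phosphate, averaged 255 ± 18.6 RPKM in matKO libraries and 199 ± 16.99 RPKM in CTR libraries (log2 change 0.36, adjusted p = 0.0718). Ldha, which makes lactate, ranged over 2651 to 3336 RPKM and 2160 to 2636 RPKM without overlap (log2 change 0.30, adjusted p = 0.102), and Tpi1 averaged 1130 ± 118 and 907 ± 80.6 RPKM (log2 change 0.31, adjusted p = 0.115). Egln3, a prolyl hydroxylase induced by hypoxia, ran the other way with no overlap, at 1.57 to 3.19 RPKM and 3.27 to 4.71 RPKM (log2 change -0.72, adjusted p = 0.0551), and it passed without matKO male 4 and male 5 (-0.66, adjusted p = 0.0417). The glucose transporter Slc2a3 was lower as well (38.8 ± 11.6 and 56.8 ± 6.71 RPKM, log2 change -0.58, adjusted p = 0.204). The list median was 0.14 without the 2 males that stood apart. Of 29 cell cycle genes none passed, 7 were higher at an unadjusted p under 0.05 (24.1%, beside 9.68% of all genes) and none was lower, and the changes were small, as for Mcm7 of the replicative helicase (138 ± 4.31 and 116 ± 10.5 RPKM, log2 change 0.25, adjusted p = 0.0947). Of 10 amino acid transporters 3 were higher at an unadjusted p under 0.05, beside the same 9.68%, one of which was Slc38a4 itself, and the median was 0.26, or 0.12 without the 2 males.

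Trophoblast regulators did not pass the test over all 13 libraries. Of 29 stem cell and ExE factors tested, 2 were higher and 2 lower at an unadjusted p under 0.05 (6.90% each, beside 9.68% and 7.27% of all genes). None passed over all genes, and the median was -0.06. Elf5 averaged 215 ± 27.3 RPKM in matKO libraries and 215 ± 40.8 RPKM in CTR libraries (log2 change 0.01), and Eomes 74.4 ± 29.3 and 68.1 ± 5.22 RPKM (log2 change 0.02). Nr0b1, an X-linked nuclear receptor, was lower in all 9 matKO libraries, at 0 in matKO male 4, 3.19 in matKO male 5 and 8.80 to 60.6 RPKM in the rest, against 79.0, 78.1, 99.2 and 98.6 RPKM in CTR libraries (log2 change -2.31, adjusted p = 0.226 over all 13, and -1.40, adjusted p = 0.0562, without those males). Gata3, a trophoblast transcription factor, was higher in all 9, at 10.98 to 20.9 RPKM and 8.34 to 9.87 RPKM (log2 change 0.48, adjusted p = 0.133), and it passed without those males (0.34, adjusted p = 0.0417). Of 9 giant cell genes tested Plaur passed and the median was 0.36. The summed giant cell list was 576 and 541 RPKM in matKO male 4 and male 5. It was 257 to 404 RPKM in the other matKO libraries and 192 to 275 RPKM in CTR libraries. That sum includes Plaur itself, so it is not separate from the Plaur result. It also includes Hand1, at 312 and 295 RPKM in those males. The part of giant cells in the Plaur result was not tested. Plaur stood at 97.4 and 96.9 RPKM in those males, within the range of the other matKO libraries. None of 14 ectoplacental cone genes and none of 15 epiblast genes had an unadjusted p under 0.05. Of 23 keratin and junction genes tested none passed, and 15 were higher and 8 lower. Their median was 0.18, or 0.01 without matKO male 4 and male 5. At an unadjusted p under 0.05, 1 was higher (Epcam) and 3 were lower (Dsg2, Dsc2 and Tjp1 of cell junctions). Over all genes 9.68% were higher and 7.27% lower at that threshold. The share of the list that was lower was above that of all genes, and the share that was higher was below it. The list mixes keratins with junction genes, so its median and counts do not describe junction genes alone. Whether junction genes fell as a set was not tested.

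Markers of other tissues were uneven. Of 27 decidual and uterine genes 4 passed the filter, and the list summed to 82.5 to 235.5 RPKM in matKO libraries, highest in matKO male 4, and 118 to 161 RPKM in CTR libraries. Of 21 maternal blood and immune genes 2 passed it. The summed visceral endoderm list was 690 RPKM in matKO male 5, 187 to 293 RPKM in the other matKO libraries and 346 to 357 RPKM in CTR libraries. The list holds Cited1, an X-linked coregulator of transcription that is also expressed in trophoblast. Cited1 made up most of the CTR sums, so the lower sums in matKO libraries do not describe the rest of the list. Of the 14 members tested 12 were higher and 2 lower, Cited1 among the lower. The median change was 0.56, or 0.19 without matKO male 4 and male 5. Several members, such as Ttr, Apoa4 and Apom, averaged under 1 RPKM in CTR libraries and passed the filter only through matKO libraries. Their direction was therefore fixed in advance, and neither the count nor either median is a result about the list. Cited1 stood at 41.3 to 154 RPKM in matKO libraries, with a median of 113, against 240, 245, 276 and 253 RPKM in CTR libraries (log2 change -1.46, adjusted p = 0.0718), and it passed as lower without matKO male 4 and male 5 (-1.28, adjusted p = 0.0403). Ttr, a defining visceral endoderm gene, was listed at 14.1 RPKM in matKO male 5 and at most 1.55 RPKM in every other library.

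Leaving out matKO male 4 and male 5 raised the number of calls to 89 (0.898%), 44 higher (0.444%) and 45 lower (0.454%), and all 20 genes called with 13 libraries were among them. The median standard deviation of log2 values within matKO was 0.19 with those libraries and 0.15 without them, against 0.13 within CTR. The genes described from among those gained were picked after their values were seen. Klhl13, an X-linked substrate adaptor of a ubiquitin ligase, stood at 5.70 to 22.4 RPKM in the other 7 matKO libraries, against 45.2, 38.8, 50.8 and 57.3 RPKM in CTR libraries (log2 change -1.80, adjusted p = 0.00863). It stood lower still in matKO male 4 and male 5, at 0.695 and 1.84 RPKM. Spin2, an X-linked spindlin, had 5.22 to 10.6 RPKM and 14.5 to 23.6 RPKM (log2 change -1.08, adjusted p = 0.0101), and Pir, the X-linked pirin, 1.31 to 4.17 RPKM and 5.82 to 10.1 RPKM (log2 change -1.13, adjusted p = 0.0196). Among 359 X-linked genes tested 1 was higher and 11 were lower in this fit, beside 43 higher and 34 lower of 9556 autosomal genes. Wdfy1, an endosomal protein, had 5.82 to 8.79 RPKM and 14.2 to 16.6 RPKM (log2 change -1.03, adjusted p = 2.63e-04), while matKO male 4 and male 5 had 14.3 and 16.5 RPKM, inside the CTR range.

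Of the 44 higher genes in the same fit 4 that were gained are described. Fosl1, an AP-1 transcription factor of trophoblast, had 6.43 to 15.7 RPKM in the other 7 matKO libraries, against 5.72, 3.52, 1.87 and 1.63 RPKM in CTR libraries (log2 change 1.55, adjusted p = 0.0116), but 0.433 and 2.49 RPKM in matKO male 4 and male 5. Cmtm5, a membrane protein, had 12.2 to 30.4 RPKM and 6.596 to 7.90 RPKM (log2 change 1.24, adjusted p = 0.0200), and the 2 males had 35.9 and 49.8 RPKM. Ly6a, a GPI-anchored surface antigen, had 39.1 to 136 RPKM and 22.06 to 30.99 RPKM (log2 change 1.16, adjusted p = 0.0401). Lcp1, an actin-bundling protein best known from blood cells, had 1.17 to 4.97 RPKM and 0.487 to 0.746 RPKM (log2 change 1.25, adjusted p = 0.0176), and it stood at 6.31 and 12.8 RPKM in the 2 males, where the summed blood and immune list was 26.95 and 38.9 RPKM against at most 16.2 RPKM in the other matKO libraries and 8.26 to 11.1 RPKM in CTR libraries. The part of that list in the Lcp1 result was not tested.

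**Figure D4:**
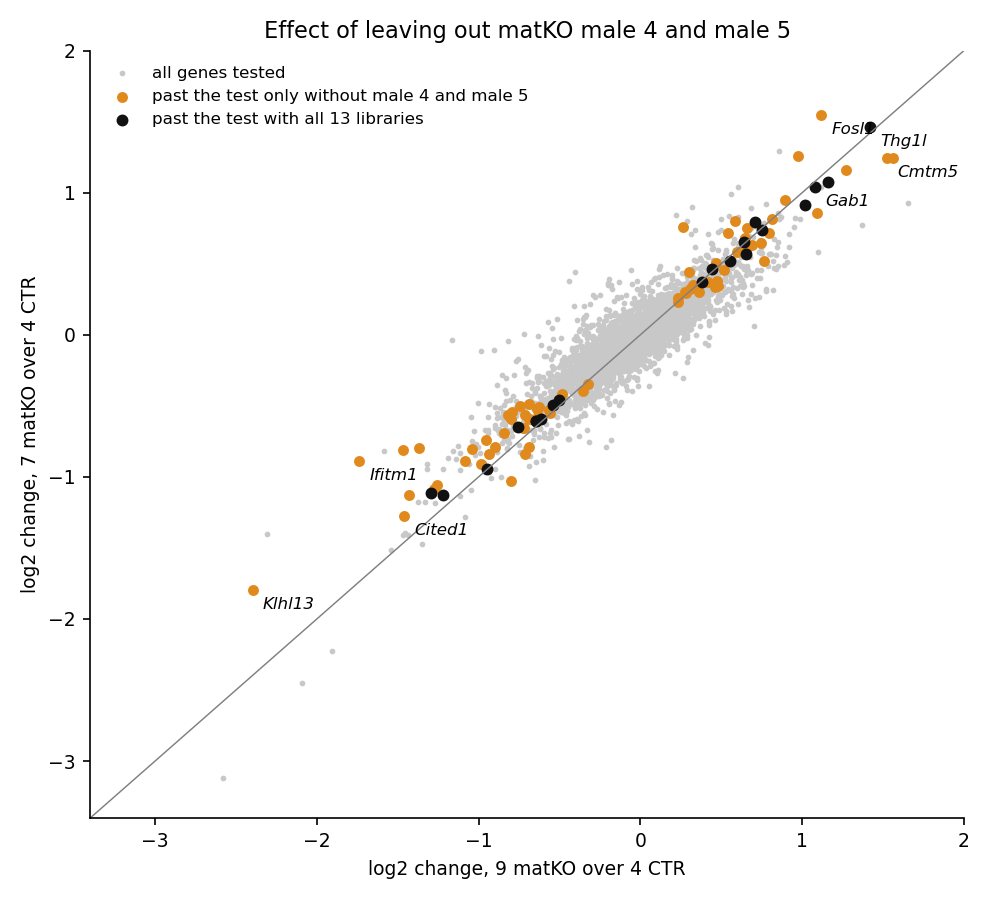
Log2 change of every gene tested with all 9 matKO libraries (x axis) and with the 7 that remain without matKO male 4 and male 5 (y axis), each over the 4 CTR libraries. Black points are the 20 genes past the test with all libraries, orange points are those gained without the 2 males, and the line marks equal values. Klhl13 and Ifitm1 lie above the line among the lower genes, since their fall was larger with the 2 males (-2.40 and -1.74) than without (-1.80 and -0.89).

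The effect of genotype was not shown to differ between the sexes. A test of the difference itself (limma) called 0 of 9915 genes, and 170 reached an unadjusted p under 0.05 (1.71%). With the libraries of each sex alone, 5 genes passed in females and 3 in males. The male genes were Thg1l, Gab1 and Plaur, and Thg1l was the only gene of the 20 that passed in females alone. Thg1l changed by 1.31 in females and 1.51 in males, Gab1 by 0.94 and 1.21, Plaur by 0.58 and 0.91 and Pigp by -0.49 and -0.79, with unadjusted p-values for the difference between 0.0833 and 0.265. All 20 genes changed in the same direction in both sexes. Cyba, the p22phox subunit of NADPH oxidases, was the gene with the next smallest p among the lower ones, at 43.5 to 90.7 RPKM in matKO libraries and 124, 124, 127 and 89.9 RPKM in CTR libraries (log2 change -0.94, adjusted p = 0.0510). It passed in females alone, by -1.09 log2 units.

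Allelic RPKM of the same libraries, which split reads at B6/129 and PWK variants, describe which parental copy carried each change and are not independent of the total. For Thg1l the maternal allele averaged 212 ± 24.6 RPKM in matKO libraries and 23.3 ± 5.20 RPKM in CTR libraries, and the paternal allele 92.8 ± 9.46 and 94.5 ± 18.7 RPKM. Gab1 showed the same form, with maternal values of 148 ± 9.64 and 19.11 ± 9.49 RPKM and paternal values of 138 ± 16.04 and 126 ± 9.43 RPKM. Stk25 had a higher maternal mean, though with overlapping libraries, and near-equal paternal means, with 6.05 ± 2.64 and 2.14 ± 1.001 RPKM on the maternal allele and 9.61 ± 2.11 and 9.65 ± 2.31 RPKM on the paternal allele. C430002E04Rik was almost wholly maternal in both groups, at 98.0% of its allelic signal in matKO libraries and 98.6% in CTR libraries, and its maternal allele stood at 20.04 ± 3.54 and 7.47 ± 2.04 RPKM. Plaur instead rose on both alleles, with maternal values of 109 ± 14.2 and 63.5 ± 16.96 RPKM and paternal values of 83.6 ± 17.4 and 52.6 ± 14.99 RPKM. Alkbh1 and Tinagl1 likewise had higher means on both alleles. Pigp was lower on both, at 111 ± 11.7 and 167 ± 22.6 RPKM on the maternal and 68.6 ± 17.5 and 128 ± 13.5 RPKM on the paternal allele. Peg3 was lower on its expressed paternal allele, at 43.6 ± 10.2 and 90.0 ± 17.5 RPKM, with 5.92 ± 4.90 and 4.23 ± 7.41 RPKM on the maternal allele. AU015836, on the X, was lower on the maternal allele, at 13.01 ± 4.86 and 37.7 ± 7.56 RPKM. Its paternal mean was higher, at 4.80 ± 6.91 and 0.0442 ± 0.0885 RPKM, with overlapping libraries. The X-linked Otud5 had higher means on both alleles, also with overlapping libraries. Males carry only a maternal X, so these means mix the sexes. The calls therefore held genes of more than 1 allelic pattern.

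**Figure D5:**
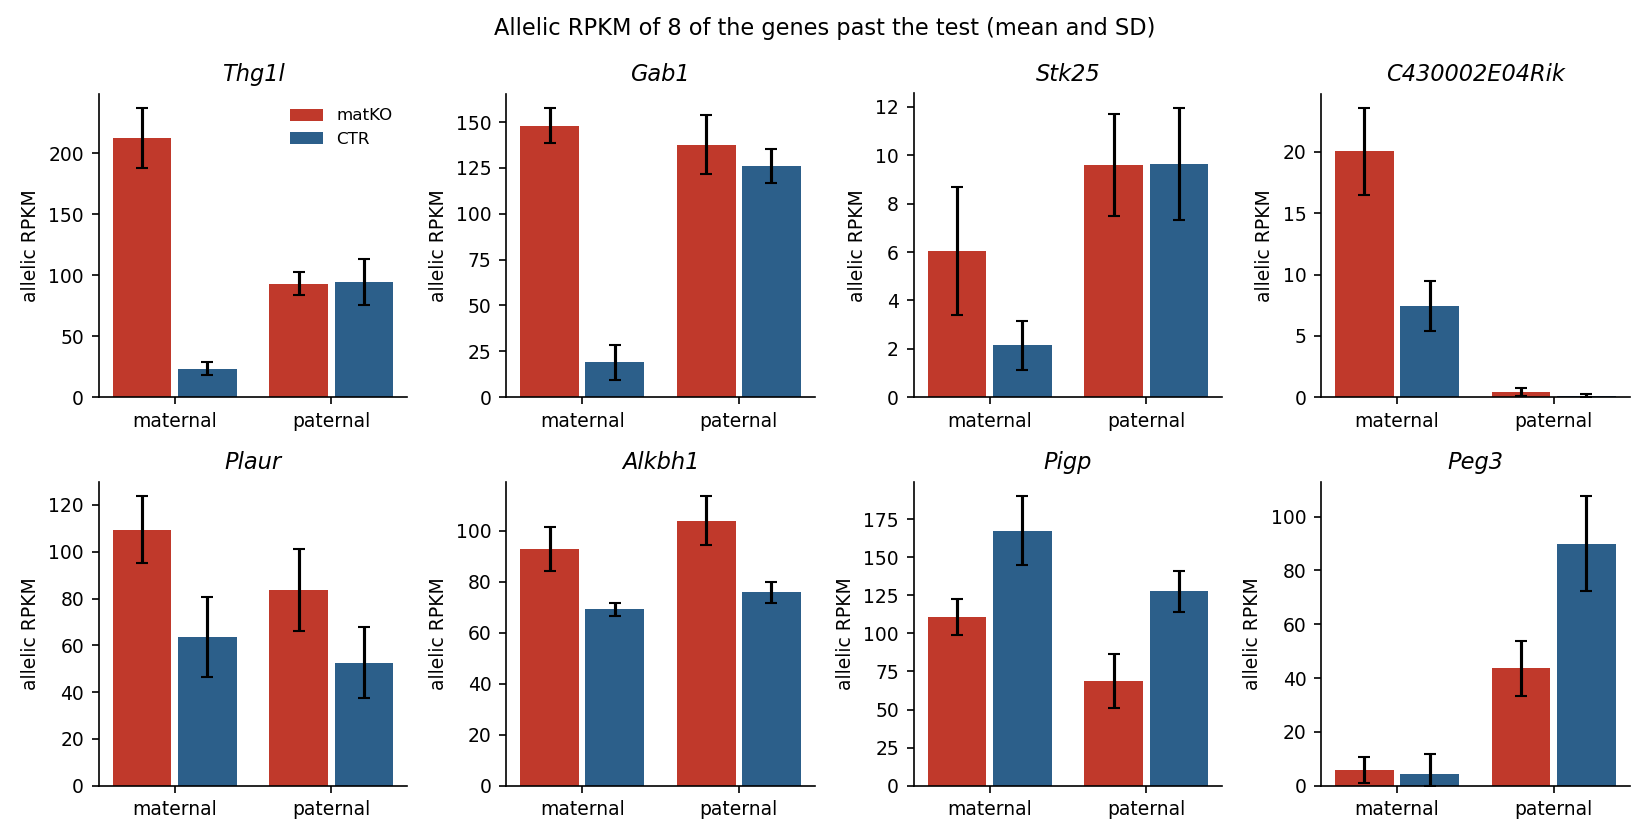
Mean allelic RPKM (bars) with SD over 9 matKO and 4 CTR libraries for 8 of the genes past the test, by parental allele. Thg1l, Gab1 and Stk25 are higher in matKO on the maternal allele with near-equal paternal bars, whereas Plaur, Alkbh1 and Pigp shift on both alleles and Peg3 on the paternal allele.

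The same genes were looked up in morulae of the same crosses, with 2 matKO and 2 CTR libraries and no test. Of the 11 genes higher in ExE, all averaged at least 1 RPKM in morulae, 5 had a higher mean in matKO morulae and 2 had both matKO libraries above both CTR libraries, beside 10.2% of all ExE-tested genes expressed in morulae. The opposite held for 1 of the 11, Gas5, at 101 and 99.7 RPKM in matKO morulae and 143 and 106 RPKM in CTR morulae. The 2 were Gab1, at 15.3 and 20.5 RPKM in matKO morulae against 8.25 and 10.8 RPKM in CTR morulae, and C430002E04Rik, at 8.72 and 15.5 RPKM against 0.0772 and 3.14 RPKM. Thg1l was not higher at that stage, with 17.2 and 20.3 RPKM in matKO morulae and 31.8 and 16.3 RPKM in CTR morulae. Of the 9 lower genes 6 were expressed in morulae, and 2 of them, Peg3 and Tmsb15b1, had both matKO libraries below both CTR libraries, beside 8.96% of all genes. Peg3 stood at 1.03 and 0.847 RPKM against 1.38 and 1.74 RPKM.

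The authors' deposited tables of changed genes, made for each sex with a selection that is not given in the sources used here, are longer than the calls above. In the authors' deposited table for females 154 genes are listed, 58 higher and 96 lower, of which 125 were tested here and 5 passed. In the authors' deposited table for males 400 genes are listed, 196 higher and 204 lower, of which 328 were tested and 7 passed. By the log2 ratio in the authors' deposited tables, every listed gene differs by more than 1 log2 unit. Of the 196 genes that the authors' deposited table gives as higher in males, 106 (54.1%) had their 2 highest values of all 13 libraries in matKO male 4 and male 5. This was so for 11.9% of all genes tested and, in the authors' deposited table for females, for 4 of the 58 higher genes (6.90%). Neither share is a like base for the 54.1%. The 196 genes are listed as higher in matKO males, and these 2 libraries are among those males. Part of the excess therefore follows from the selection, and the rest was not tested. Of the 20 calls here, Thg1l, C430002E04Rik, Naa11, Rnase1 and Tmsb15b1 are in both of the authors' deposited tables, Gab1 and AU015836 are in the male one, and the other 13 are in neither.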

How the data were processed

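RNA-seq values of 13 ExE libraries (9 matKO, 4 CTR) were used, with 4 morula libraries for a description. The authors deposited RPKM per gene and library, and allelic RPKM per parental allele. Per the submitters' processing notes, HISAT2 2.1.0, Cufflinks 2.2.1 and the mm9 build were used, with roles not stated. Assignment of reads to alleles, duplicate handling and strand are not given in the sources used here. Deposited tables of changed genes give the authors' log2 ratios. Coordinates are those of the deposited table and often cover only part of a gene. The tables hold 42 further per-sample columns, which were left aside.

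Groups and sex came from the labels. Allelic columns matched best with the total RPKM of their own library in 13 of 13 cases, and none of the 13 Y-linked genes listed had a value above 0. Genes averaging 1 RPKM or more were tested with limma 3.58.1 (R 4.3.3, trend) on log2(RPKM + 1) with sex and genotype as terms, two-sided, and Benjamini-Hochberg adjusted p under 0.05. A genotype by sex term tested the difference between sexes. Eed was tested by exact permutation within sex. RPKM are not counts, so no count model was fitted. The fit was tested on simulated data. The named genes were Eed, Xist, 5 H3K27me3-dependent imprints, up to 12 called genes each way without overlap whose higher group averaged at least 5 RPKM, up to 4 called members per list, and genes of smallest p to reach 10 each way. Naa11 and the genes named from lists or from the fit without matKO male 4 and male 5 fall outside this rule. The members, tests, 32 gene lists (774 of 777 members found, 9 by an older symbol) and alternatives were chosen with earlier results of these data known. Promoter windows came from RefSeq (GRCm38.p6). Other steps and figures used matplotlib 3.10.9, scipy 1.17.1, numpy 2.4.6, pandas 2.3.3 and Python 3.11.15. Depth is unknown beyond its relative values, so no counting interval is given.

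The 28 alternatives were a pseudocount of 0.1, no filter or 5 RPKM, quantile or median scaling, no trend, a robust fit, array weights, no sex term, an effect averaged over the sexes, a replicate block, each sex alone, fits without 2 or 3 libraries that stood apart, and without each library.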

Additional observations from a re-analysis of the deposited data

Results flagged for a closer look

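Of 54 groups tested over 27 named genes (9 matKO or 4 CTR libraries each), 4 held a library far from the others of its group, and chance flags about 1 group in 20. Phf17, the acetyltransferase subunit with an H3K27me3-dependent imprint, stood at 29.5 RPKM in CTR female 1, while the other CTR libraries stood at 37.98 to 39.3 RPKM. AU015836, the X-linked transcript that fell in matKO ExE, stood at 6.95 RPKM in matKO female 1, while the next matKO library was at 4.74 RPKM and the lowest at 3.23 RPKM. Gnb4, the G protein subunit, stood at 2.76 RPKM in CTR male 1, against 3.43 RPKM or more in the other CTR libraries. Cyba, the NADPH oxidase subunit, stood at 89.9 RPKM in CTR male 2, against 124.0 to 127 RPKM in the other CTR libraries, and this library overlapped the highest matKO library, male 1, at 90.7 RPKM. The 4 values came from 4 different libraries.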

How the results depend on the processing

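All 20 genes kept their direction in every alternative that gave them a value, and over the named genes 2188 of 2529 recomputed values kept direction and side of the threshold, 191 lost the call, 106 gained one, 44 moved and 0 reversed. Of 812 list medians 13 moved. The number of genes called was 20 and became 39 without a filter on low values, 1032 with array weights, which gave matKO male 4 and male 5 weights of 0.264 and 0.334, 5 with the effect averaged over the sexes, 5 in females alone, 3 in males alone, 89 without matKO male 4 and male 5, and 66 without those and matKO female 1. Leaving out each library in turn gave 2 to 51 calls. The cause of these moves was not tested beyond the smaller number of libraries or larger number of genes in each fit. Losses without a single matKO library were most frequent for matKO female 1 and female 4. The replicate block called 26 genes, 7 of them shared with the 20, but the numbers do not pair the samples: same-numbered libraries correlated at 0.014, 0.033, -0.038 and 0.058 after removal of group means. For the difference between the sexes, 0 genes became 1 without a filter, 4 with the replicate block, and 0 to 1 with each library left out. The Eed difference ran from -43.6 to -29.1 RPKM with each library left out, with exact permutation p from 0.00952 to 0.0778, and missed 0.05 without CTR female 2 or CTR male 2. Unknown absolute depth limits what can be said of genes near 1 RPKM.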

Other observations

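Some gene groups that were tested and not yet described also gave few or no calls. Of 20 cholesterol synthesis genes none had an unadjusted p under 0.05, and the list median of 0.13 became -0.06 without matKO male 4 and male 5. Of 24 DNA and histone methylation enzymes none passed, with 1 higher at an unadjusted p under 0.05 (4.17%, beside 9.68% of all genes) and a median of 0.00. Of 16 germline genes that DNA methylation silences none passed, and the median was -0.08. Interferon response genes numbered 9 tested, with none passing. Fos, an immediate early gene of the AP-1 family, averaged 24.8 ± 9.87 RPKM in matKO libraries and 12.03 ± 2.67 RPKM in CTR libraries (log2 change 0.92, limma adjusted p = 0.128, higher in both sexes at 0.91 and 0.93).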
